A study of Mus musculus with 3 samples.

Results

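G protein-coupled receptors are membrane proteins that turn an outside signal into the activation of a heterotrimeric G protein inside the cell. Those first found by sequence alone were given running Gpr numbers, and many of them are still called orphans because no natural ligand is agreed on. The numbered Gpr genes were examined here in RNA bound to tagged ribosomes from the cerebral cortex of adult mice. The members are the rows of the count tables whose symbol is Gpr followed by a number and at most 1 lower-case letter, and 74 of 32531 gene rows met that rule. The rule goes by name: it also takes in receptors whose ligands are now known and a few proteins of intracellular membranes that are not classical receptors. It leaves out most adhesion receptors, since of 18 older Gpr symbols of that family 1, Gpr112, was in the tables.

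All 3 libraries belong to a single group, untreated Kcnip2-TRAP mice of line NIDA115 on the C57BL/6J strain. In translating ribosome affinity purification (TRAP), a fusion of EGFP to the ribosomal protein Rpl10a is driven by the regulatory sequences of Kcnip2, and ribosomes of the cells that use them are pulled down with anti-EGFP antibodies. Libraries of input or wild-type tissue were not analysed here: the values are levels in the immunoprecipitate with its background, and enrichment over whole cortex cannot be given. Whether each library stems from its own animal is not stated in the labels, and the spread between them may be technical. Since each library is a mixture of cells, fewer cells of a type and less RNA per cell cannot be told apart.

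Counts assigned to genes were 11602248, 13635132 and 14174384 in replicates 1, 2 and 3. Levels are given as CPM, counts per 1e+06 of a library size scaled by TMM, a method that balances libraries on genes that move little. Orders between single genes rest on CPM per kb, CPM divided by the gene's summed exon length in kilobases, unless the sentence names CPM. A count of 0 allows up to 0.256, 0.222 and 0.213 CPM in replicates 1, 2 and 3, taking 3 counts as the limit, for counting error only. Kcnip2, whose sequences drive the tag, was at 164 ± 21.9 CPM (SD, n = 3), and all 8 pan-neuronal markers were detected, with Snap25 the highest. Glial transcripts were present too: 8 of 8 astrocyte, 6 of 7 oligodendrocyte, 6 of 8 microglia and 3 of 6 endothelial and mural markers were detected. Nuclear RNAs summed to 10729 CPM in replicate 1 against 3588 and 2475 CPM in replicates 2 and 3.

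The promoters of 4 members are shown first because CpG content, which the rule did not use, differed between detected members and undetected ones. RefSeq windows on GRCm38.p6 were found for 51 members, and the 250 bases before the start site were scored. The sequences run 5′ to 3′ on the gene's strand, and capitals mark CpG dinucleotides. Gpr158 and Gpr22 were the highest members per kb, Gpr3 has one of the CpG-richest windows, and Gpr18 had no read.

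Gpr158 (chr2:21367317-21367566, plus strand, 14 CpG): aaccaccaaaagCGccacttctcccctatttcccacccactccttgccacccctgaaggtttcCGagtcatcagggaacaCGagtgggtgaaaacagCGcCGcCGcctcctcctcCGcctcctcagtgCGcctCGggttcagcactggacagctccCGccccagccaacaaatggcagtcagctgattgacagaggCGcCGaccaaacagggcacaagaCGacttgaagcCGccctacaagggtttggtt
Gpr22 (chr12:31713884-31714133, minus strand, 1 CpG): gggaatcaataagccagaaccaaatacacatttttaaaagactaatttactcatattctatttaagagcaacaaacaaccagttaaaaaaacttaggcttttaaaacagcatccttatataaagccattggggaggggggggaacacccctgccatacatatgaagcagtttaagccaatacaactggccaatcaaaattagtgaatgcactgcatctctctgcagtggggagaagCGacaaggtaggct
Gpr3 (chr4:133212537-133212786, minus strand, 29 CpG): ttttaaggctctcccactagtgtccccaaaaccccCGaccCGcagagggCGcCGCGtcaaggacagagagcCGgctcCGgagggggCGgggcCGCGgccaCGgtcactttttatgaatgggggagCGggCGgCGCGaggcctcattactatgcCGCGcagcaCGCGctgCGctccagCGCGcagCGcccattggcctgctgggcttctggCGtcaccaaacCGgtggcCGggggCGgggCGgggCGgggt
Gpr18 (chr14:121915889-121916138, minus strand, 3 CpG): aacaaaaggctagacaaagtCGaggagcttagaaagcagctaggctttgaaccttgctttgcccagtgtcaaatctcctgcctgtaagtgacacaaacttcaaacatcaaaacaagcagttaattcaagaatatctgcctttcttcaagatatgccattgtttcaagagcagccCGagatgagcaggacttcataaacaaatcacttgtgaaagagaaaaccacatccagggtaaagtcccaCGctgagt

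The window of Gpr158 held 14 CpG, that of Gpr3 held 29, and that of Gpr18 held 3. Gpr22 went the other way, with 1 CpG in its window although it was the second highest member. It was not alone: Gpr25 and Gpr85, which were detected, had 2 CpG each. Gpr12, also among the highest per kb, had a mean of 7.5 over its windows. Gpr135 and Gpr160, which were not detected, had 17 each. Over the 28 members with a window that were detected (1 CPM or more in all 3 libraries) the median was 12 CpG per window, against 3 over 23 members that were not detected and 2.5 over the 10 among these with no read. All 32851 windows of the table had a median of 6. The GC box GGGCGG, on either strand, was in the windows of 17 detected members (60.7%) and 4 undetected ones (17.4%), and in 32.7% of all windows. The cAMP response element TGACGTCA, also sought on both strands, was found only in the window of Gpr6 among the members, and in 1.55% of all windows. Where a gene had several windows, its mean CpG count was used, and a motif was counted if any window held it. The same split by detection was not made over all genes, so the difference is not shown to be particular to these members. These figures describe sequence and were not tested, and a match is not evidence of factor binding.

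A larger share of the numbered Gpr genes than of all gene rows was detected. Of the 74 members, 36 (48.6%) were detected, beside 37.3% of all gene rows. These rows include 8603 without an annotated length, and the share over the annotated rows alone was not computed. The median member was at 1.59 CPM and the median of all gene rows at 0.142 CPM. Per kb, over the 73 members with an annotated length, the median was 0.616 CPM per kb, beside 0.467 over 23928 gene rows with a length. Another 10 members reached 1 CPM in some libraries, 13 had reads but stayed under 1 CPM in every library, and 15 had none. For the 41 receptors of serotonin, catecholamines, acetylcholine, histamine, cannabinoids and adenosine in the tables, 25 (61.0%) were detected and the median was 4.29 CPM. The members' higher share than all gene rows and lower share than the transmitter receptors are descriptions without a test.

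**Figure D1:**
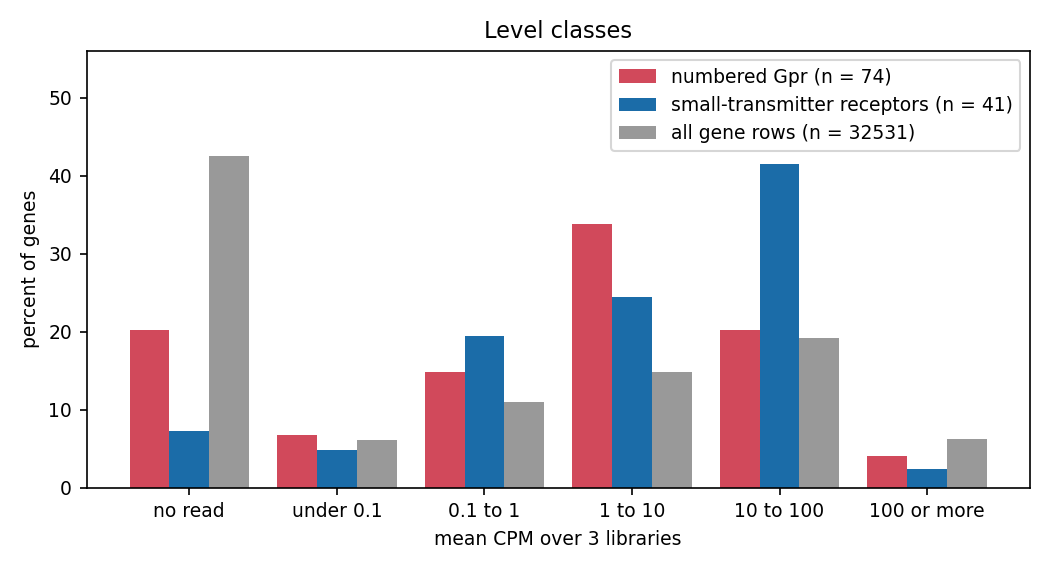
Percent of genes (vertical axis) in classes of mean CPM over the 3 libraries (horizontal axis) for the 74 numbered Gpr genes, 41 receptors with known small transmitters and all 32531 gene rows. Bars show that 15 numbered Gpr genes (20.3%) had no read, against 42.5% of all gene rows, and that 3 (4.05%) averaged 100 CPM or more.

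Close to the threshold, the members just inside were Gpr61, Gpr4 and Gpr62, whose lowest libraries were at 1.40, 1.45 and 1.45 CPM. Outside but close to it were Gpr135 and Gpr149, with lowest libraries at 0.852 and 0.850 CPM. Membership of the detected set thus turns on small counts at this edge.

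Gpr158 stood above every other member. This class C orphan holds the R7 RGS complex, a brake on G protein signals, at the neuronal membrane. It was read at 362, 418 and 409 CPM in replicates 1, 2 and 3, a mean of 396 ± 30.2 CPM (SD, n = 3). No other numbered Gpr gene passed 100 CPM in each library. It took 37.3% ± 1.13 of all reads on numbered Gpr genes, and 23.0% ± 1.11 of their sum per kb. The gene lies on chromosome 2 at 21367542 to 21830547 (GRCm38, plus strand) and has 11 coding exons. Per kb its level was 48.5 ± 3.70, above the next member, Gpr22, by 1.14 ± 0.20 on the log2 scale, with all 3 libraries on the same side. Gpr179, a class C member known from retinal bipolar cells, was hardly read, with 0, 7 and 3 counts. Of the fixed list for the R7 RGS complex, 5 of 7 genes were detected. Rgs7bp, the membrane anchor of that complex, was at 723 ± 15.4 CPM, Rgs7 at 236 ± 24.9 and Gnb5, its G beta subunit, at 110 ± 5.76.

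Gpr22, Gpr25, Gpr155 and Gpr12 followed per kb. Gpr22, a class A orphan of brain and heart (chromosome 12, 31706867 to 31713947), was at 102, 91.2 and 111 CPM, or 21.97 ± 2.13 CPM per kb. Gpr155 (chromosome 2, 73341506 to 73386572), a lysosomal protein that senses cholesterol, was at 95.9, 124 and 130 CPM, or 17.5 ± 2.72 CPM per kb, lowest in replicate 1. Gpr12, a constitutive activator of Gs and thus of cAMP (chromosome 5, 146582398 to 146585239), was at 35.6, 35.2 and 32.3 CPM, or 13.7 ± 0.722 CPM per kb. Gpr22 exceeded Gpr25 in the same direction in each library (log2 difference 0.30 ± 0.15), whereas Gpr25 over Gpr155 (0.04 ± 0.26) and Gpr155 over Gpr12 (0.34 ± 0.30) did not exceed their spread. Here and below, a difference is said to exceed its spread where the 3 log2 ratios have the same sign and their mean is more than 2 SD from 0. With 3 libraries an exact sign-flip test cannot go below p = 0.25, so no p-value is given for these ratios.

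Gpr25 is an uncertain case. The gene, best known from lymphocytes, was at 19.5, 19.1 and 18.8 CPM, a coefficient of variation of 1.80% over libraries, and its short exon of 1077 bases put it at 17.8 ± 0.321 CPM per kb. It lies on chromosome 1 at 136259797 to 136260873 on the minus strand, and 41.6% of that stretch is covered by exons of Gm26781 on the opposite strand. Upstream on its own strand, Camsap2, a neuronal microtubule minus-end gene, ends 7249 bases before the start of Gpr25 and was at 432 ± 6.15 CPM. How strand was treated in counting is not stated in these sources, and the reads cannot be assigned to Gpr25 alone, and the part of either neighbour was not tested. Of the 13 fixed receptors of immune and blood cells, a list that does not hold Gpr25, none was detected, beside 37.3% of all gene rows.

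The next members by level per kb were a mixed set. Gpr75, a class A receptor linked to body weight, was at 23.9, 27.8 and 28.9 CPM (9.18 ± 0.908 CPM per kb). Gpr176, an orphan of the brain's circadian pacemaker, was at 31.9, 38.0 and 29.3 CPM (8.47 ± 1.14 CPM per kb). Gpr180, which is not a classical receptor, was at 11.7, 13.1 and 9.00 CPM (6.01 ± 1.12 CPM per kb). All of them were read at a like level in the 3 libraries, and Gpr12 lay above Gpr75 beyond the spread (log2 0.58 ± 0.21), as did Gpr176 above Gpr180 (0.50 ± 0.13). Gpr19, a class A orphan, was at 12.9, 18.2 and 17.5 CPM (5.54 ± 0.988 CPM per kb). Gpr83, reported as a receptor of the peptide PEN, was at 32.8, 28.4 and 20.7 CPM (5.36 ± 1.21 CPM per kb). Gpr165 was at 18.2, 20.4 and 16.0 CPM (4.001 ± 0.481 CPM per kb). From Gpr180 down to Gpr165 no neighbour in the order differed beyond its spread. Over all 35 detected members with a length, 5 of 34 neighbouring steps did, and the fifth was Gpr165 over Gpr85 (log2 0.09 ± 0.04).

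**Figure D2:**
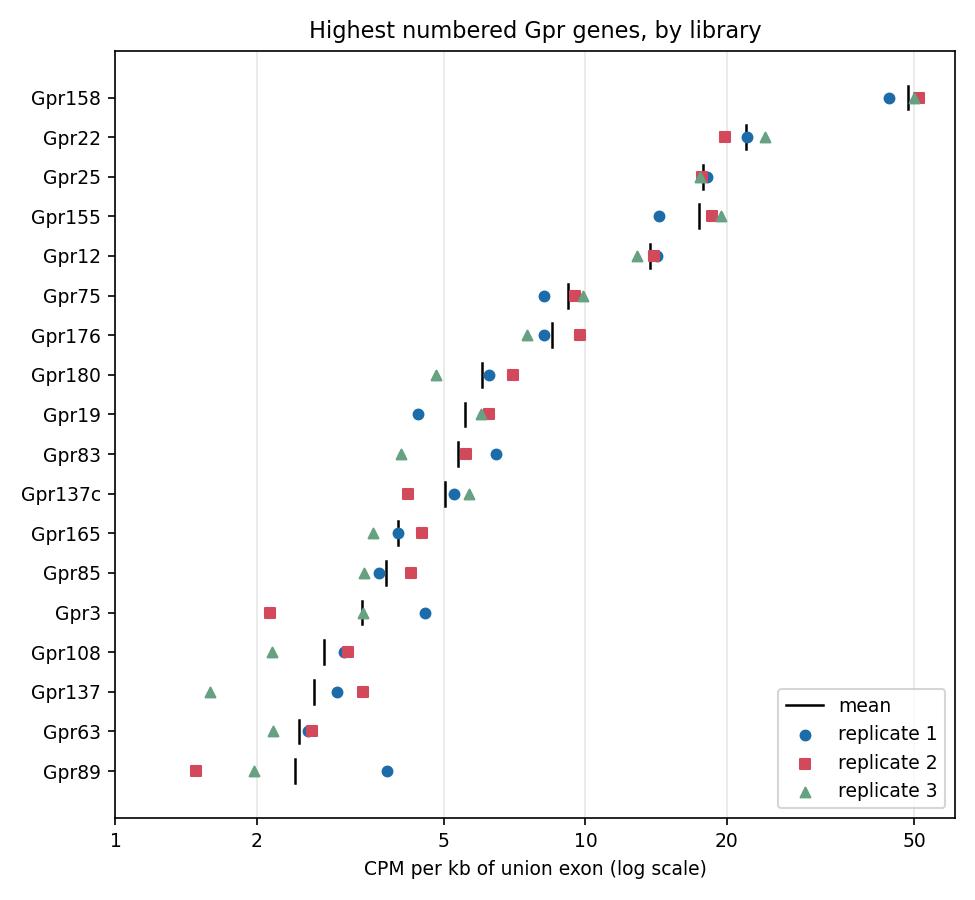
CPM per kb of union exon (horizontal axis, log scale) of 18 of the 20 numbered Gpr genes with the highest mean (vertical axis), 1 marker per library and a bar at the mean. Gpr158 sits near 48.5, Gpr22 near 21.97, and libraries of Gpr3 and Gpr89 lie far apart.

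Most of the related pairs that could be compared differed beyond their spread. Of 22 pairs of related receptors set for comparison, 13 could be compared per kb in all libraries, and 10 of these differed beyond their spread. In 4 others a library was at 0, in 4 a partner was not in the tables, and Gpr52 had no length. Some members enter more than 1 pair. Unrelated genes were not paired in this way, so the count is not shown to be particular to relatives. Gpr3, Gpr6 and Gpr12 all activate Gs without a ligand. Gpr3 was at 12.4, 5.83 and 9.21 CPM and Gpr6, known from striatal neurons, at 1.71, 0.960 and 0.638 CPM. Gpr12 exceeded Gpr3 in all 3 libraries (log2 ratio of Gpr3 to Gpr12 -2.10 ± 0.56, 4.28-fold) and exceeded Gpr6 (log2 ratio of Gpr6 to Gpr12 -4.59 ± 0.65, 24.1-fold). Gpr3 in turn exceeded Gpr6 by 2.49 ± 0.66. The order Gpr12, Gpr3, Gpr6 held in each library, with Gpr6 resting on 42 reads in all.

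The SREB receptors, named for their strong conservation and their expression in brain, were ordered likewise. Gpr85 was at 14.8, 17.4 and 13.8 CPM, Gpr173 at 7.76, 11.3 and 11.1, and Gpr27 at 1.19, 0.665 and 0.213, the last at the limit that a count of 0 allows. Gpr85 exceeded Gpr173 per kb by a log2 ratio of 0.95 ± 0.31 (1.93-fold) and Gpr27 by 4.01 ± 1.195. The log2 ratio of Gpr27 to Gpr173 was -3.07 ± 1.501, and without replicate 2 it no longer exceeded its spread (-3.10 ± 2.12). With 26 reads of Gpr27 over all libraries, the size of both ratios to Gpr27 is loosely set.

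Among proton-sensing receptors, Gpr4, known from vessels, was at 1.45, 2.36 and 2.48 CPM. Gpr65 and Gpr132, proton-sensing receptors of immune cells, had no read. The orphans Gpr45 and Gpr63 were at 7.77 ± 0.639 and 6.35 ± 0.653 CPM. Their log2 ratio per kb was -1.19 ± 0.20 in favour of Gpr63. By the longest transcript it was -0.38 ± 0.20, on the same side but no longer beyond its spread. Without division by length it became 0.29. Which of them is higher thus rests on dividing by length, and the size of the gap on the length used. Gpr61 and Gpr62 could not be ordered (log2 ratio 0.25 ± 1.41): Gpr61 was at 6.73, 1.40 and 4.75 CPM and Gpr62 between 1.45 and 1.92. Without replicate 2, where Gpr61 was lowest, the ratio was 1.05 ± 0.38 and exceeded its spread. Gpr153 and Gpr162 did not differ beyond the spread either (0.30 ± 0.51), at 6.67 ± 1.80 and 5.23 ± 1.02 CPM.

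**Figure D3:**
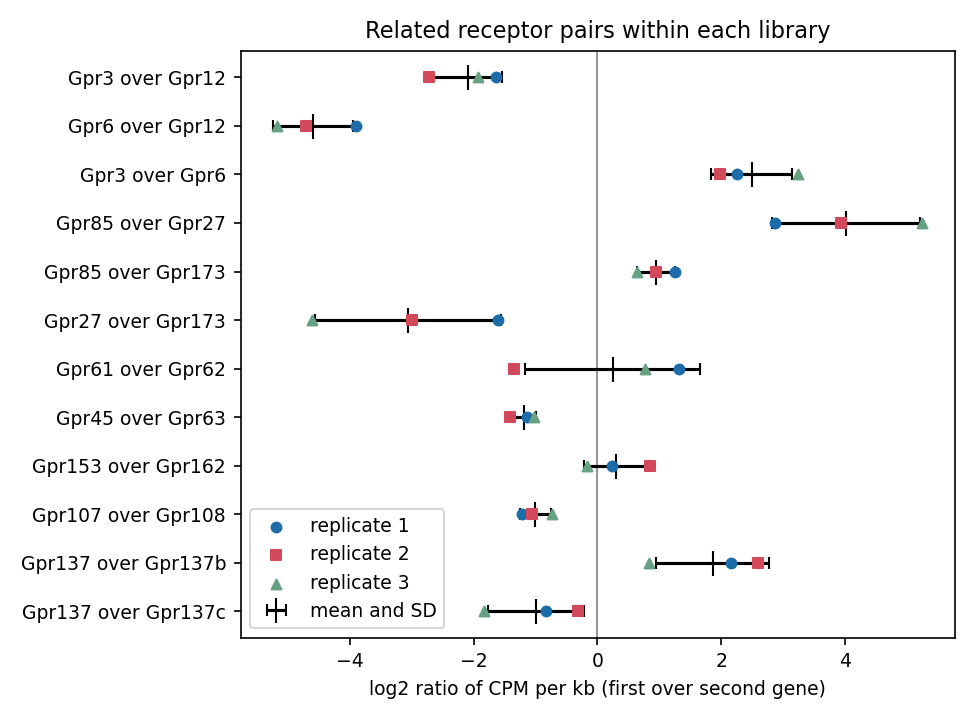
Log2 ratio of CPM per kb between related receptors (horizontal axis) for 12 of the 13 pairs (vertical axis), 1 marker per library, with the mean and SD in black. Ratios of Gpr3 and Gpr6 to Gpr12 lie left of 0 in all 3 libraries, whereas those of Gpr61 over Gpr62 lie on both sides.

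Gpr-named proteins that sit on intracellular membranes or have another fold were all detected, 8 of 8, with a median of 12.1 CPM. Beside Gpr155 and Gpr180, Gpr137c, of a lysosomal family, was at 46.0, 36.8 and 49.7 CPM (5.03 ± 0.757 CPM per kb). Its relative Gpr137 was at 10.1, 11.4 and 5.38 CPM and exceeded Gpr137b per kb by a log2 ratio of 1.86 ± 0.92, a difference within its spread without replicate 1 (1.715 ± 1.24) or replicate 2 (1.4995 ± 0.94). Gpr137 and Gpr137c did not differ beyond the spread (-0.99 ± 0.77), and without division by length they did (-2.36 ± 0.77). Gpr137b itself, at 3.53 ± 0.848 CPM, has a pseudogene copy, Gpr137b-ps, which was at 9.02 ± 2.60 CPM, and reads of the copies may have been shared. Gpr107 and Gpr108, Golgi proteins, were at 17.6 ± 1.44 and 7.96 ± 1.56 CPM. Their log2 ratio per kb was -0.999 ± 0.25 in favour of Gpr108, and it became 1.16 without length and -0.19 by the longest transcript, since the exons of Gpr107 add up to 12766 bases. Gpr89, a Golgi anion channel needed for acid pH there, was at 20.3, 7.98 and 10.6 CPM, highest in replicate 1. Exons of Gja5 and Pdzk1 on the opposite strand cover 27.9% of its own exons.

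Of the 16 genes in the list of other brain class A orphans, 10 were detected. These include Gpr22, Gpr75, Gpr176, Gpr19, Gpr83 and Gpr165, given above. Gpr146 was at 7.16 ± 0.879 CPM, Gpr101, a Gs-coupled receptor of the hypothalamus and pituitary, at 3.84 ± 0.889 CPM. Gpr157, in none of the fixed lists, was at 2.79 ± 1.09 CPM. Gpr26, whose partner gene Gpr78 was not in the tables, was at 7.16, 8.20 and 12.04 CPM, highest in replicate 3. Gpr161, a receptor of primary cilia, was at 2.56, 0.960 and 0.283 CPM. It straddled the threshold, falling to 4 reads in replicate 3. Gpr50, a melatonin-related receptor, did not reach 1 CPM in any library, and neither did Gpr21, at 26 reads in all.

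In the fixed list of receptors with lipid, metabolite or metal ligands, none of the 9 in the tables was detected, beside 37.3% of all gene rows. Gpr18, Gpr84 and Gpr183 stand both in that list and in the list of immune and blood receptors. That list does not hold Gpr155 (cholesterol, given above) or Gpr34 (lysophosphatidylserine, given below). Gpr84, a receptor of medium-chain fatty acids on activated microglia, was at 0.341, 1.55 and 0.496 CPM, the highest mean of the list by CPM and per kb, and 39.5% of its exon is covered by Gm49482 on the other strand. Gpr183, an oxysterol receptor of lymphocytes, had 2, 3 and 4 counts, and Gpr55, a receptor of lysophosphatidylinositol, had 1, 1 and 2. Gpr39, the zinc receptor, and Gpr119, the fat-sensing receptor of pancreas and gut, had no read. Neither did Gpr18, Gpr31b, Gpr35 or Gpr143 of this list, nor Gpr33, Gpr112, Gpr142, Gpr152, Gpr171 and Gpr174. Like Gpr65 and Gpr132, these are among the 15 members without a read. Of the members under 1 CPM in every library, Gpr1, Gpr15, Gpr20, Gpr82, Gpr141, Gpr151 and Gpr160 had between 1 and 11 reads in all.

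The 4 members known as glial markers were each lowest in replicate 1. This was not particular to glial genes: 6 of 8 pan-neuronal markers and 3 of 7 oligodendrocyte markers were lowest there too. The share of all genes lowest in replicate 1 was not counted. Gpr17, a receptor of maturing oligodendrocyte precursors, was at 5.03, 16.0 and 8.36 CPM. The 4 precursor markers, all detected and none at 0, summed to 54.8, 69.5 and 70.2 CPM. Taken singly, 3 of them were lowest in replicate 1, whereas Olig2 was highest there, at 21.2, 18.5 and 13.2 CPM. Gpr17 peaked in replicate 2, while the precursor sum was as high in replicate 3. Gpr37, an oligodendrocyte receptor also found in neurons, was at 2.98, 6.79 and 7.16 CPM. The 7 oligodendrocyte markers, none at 0, summed to 563, 664 and 485 CPM, an order that differs from that of Gpr37. Gpr34, a lysophosphatidylserine receptor of microglia, was at 0.767, 1.48 and 1.98 CPM, and the 8 microglia markers, none at 0, summed to 49.1, 72.0 and 72.8 CPM. Gpr34 and the sum were lowest in replicate 1, as were 3 of the 8 markers taken singly. Gpr182, a chemokine scavenger of endothelial cells, was at 0.426, 2.29 and 1.28 CPM, and the 6 endothelial and mural markers, of which Cldn5 was at 0 in replicates 2 and 3, summed to 14.9, 20.8 and 16.4 CPM, so that the sum was, like Gpr182, highest in replicate 2. Only 2 of these 6 markers, Flt1 and Rgs5, were highest there, while Pecam1, Kdr and Cldn5 were highest in replicate 1 and Pdgfrb in replicate 3. The part of glial and vascular RNA in these levels was not tested.

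Striatal and habenular members were split between libraries. Gpr52, a Gs-coupled striatal orphan, was at 1.62, 3.32 and 1.84 CPM. It was highest in replicate 2, where the 8 striatal markers, none at 0, summed to 450 CPM against 333 and 320 CPM in replicates 1 and 3. In that list 5 markers, with Penk and Pde10a at the highest CPM, were highest in replicate 2, and Tac1, Rgs9 and Adora2a in replicate 1. Gpr149 and Gpr6 were instead highest in replicate 1, Gpr149 at 2.73, 1.11 and 0.850 CPM. Gpr139 and Gpr151, receptors of the habenula, had 37 and 3 reads in all. Of 7 habenular and thalamic markers 3 were detected: Rora at 277 ± 10.4 CPM, Tcf7l2 at 12.2 ± 1.66 and Tac2 at 2.95 ± 0.320. Chrnb4, Chrna3 and Pou4f1 had 25, 17 and 6 reads in all, and Gbx2 had no read. How far RNA of neighbouring regions enters these values was not tested.

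**Figure D4:**
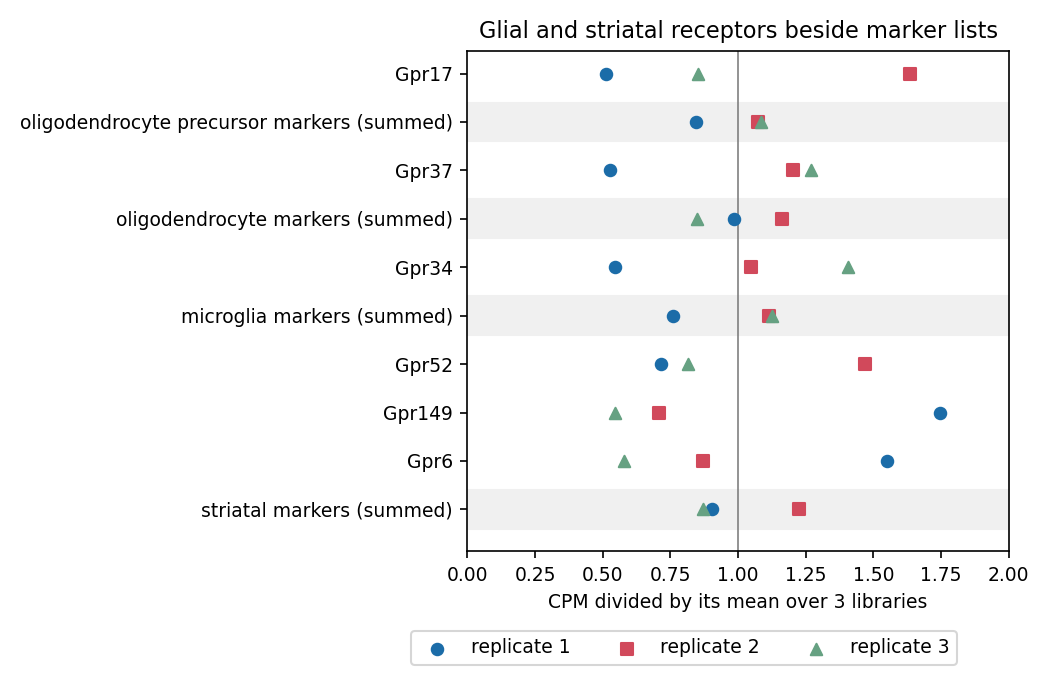
CPM divided by its mean over the 3 libraries (horizontal axis) for members known from glia or striatum and, in grey bands, the summed CPM of marker lists (vertical axis). Markers are libraries: Gpr17 and Gpr52 are highest in replicate 2, as is the striatal sum, and Gpr149 and Gpr6 in replicate 1.

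None of the 40 members tested was called as varying between libraries beyond genes of like level after adjustment over all genes. With 3 libraries, this does not show that they did not vary. Of 74 members, 40 had enough reads for a quasi-dispersion test computed from edgeR's fit. The test asks whether a gene's spread over the 3 libraries exceeds the trend at its level. None passed at a Benjamini-Hochberg adjusted p of 0.05, beside 11 of 12509 genes (0.0879%), and DESeq2's dispersion outliers, 28 genes, also held no member. At an unadjusted p under 0.05 there were 5 members of 40, among them Gpr135, Gpr17, Gpr89 and Gpr61, beside 5.72% of all genes. The lowest was Gpr135, an orphan at 0.852, 4.65 and 0.921 CPM. Its F ratio to the trend was 6.27, with a quasi-dispersion test adjusted p of 0.574. Gpr17 followed with an F ratio of 5.27 and a quasi-dispersion test adjusted p of 0.714. Only 2 members had an unadjusted p under 0.05 without replicate 2, in which Gpr135 and Gpr17 were highest. Over the tested members the median coefficient of variation was 21.1%, beside 15.2% over all genes tested. Unlike the test, this coefficient does not allow for level, and the members were not matched to genes of like level. Of the 40 members, 18 were highest in replicate 2, beside 32.8% of all genes tested.

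**Figure D5:**
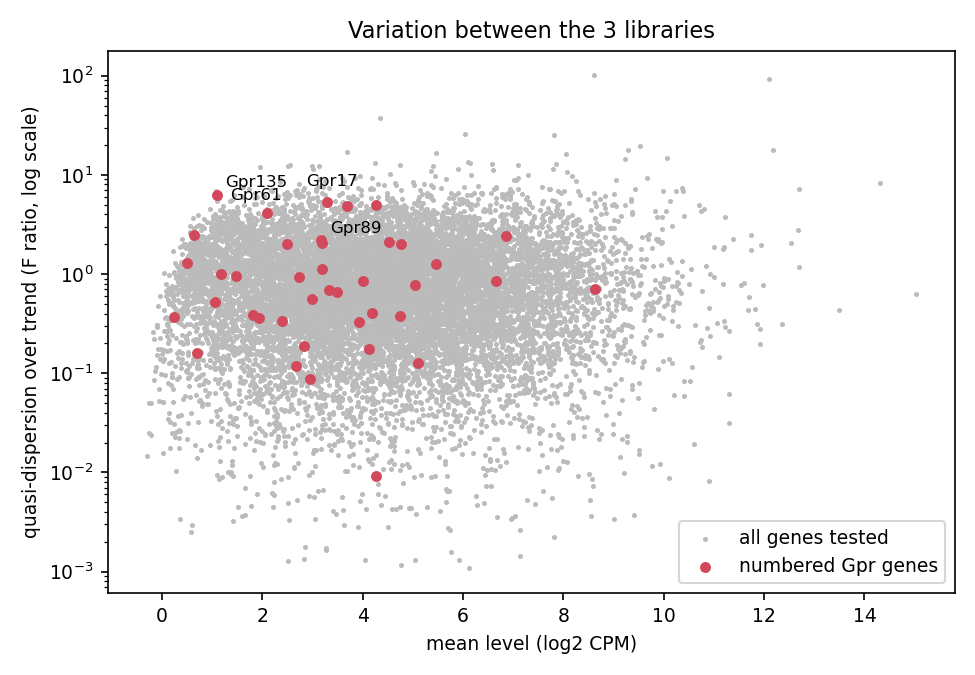
Quasi-dispersion of each gene divided by the trend (vertical axis, log scale) against mean level (horizontal axis, log2 CPM) for all 12509 genes tested (grey, ratios under 0.001 not drawn) and the 40 numbered Gpr genes tested (red). Names are given for 4 of the 5 members with an unadjusted p under 0.05, and Gpr135 is the highest at 6.27.

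The partners through which receptors act were read at higher levels than most members. Of 15 G alpha genes 11 were detected. Gnas, the Gs subunit, was at 3101 ± 251 CPM, and per kb the highest was Gnai1, a Gi subunit, at 317 ± 14.1 beside 277 ± 22.4 for Gnas. Of 15 G beta and gamma genes 11 were detected, and per kb Gng3 was the highest at 290.25 ± 30.6, above Gnb1 at 170.4 ± 1.90. Of 10 adenylyl cyclases, the enzymes that Gs-activating receptors such as Gpr12 drive, 7 were detected, and Adcy1 was at 646 ± 23.2 CPM. Of 8 receptor kinases and arrestins 7 were detected, and Arrb1, the highest by CPM and per kb, was at 220 ± 20.3 CPM. No gene of these lists passed the variation test. Per kb, the median G alpha gene was at 12.1 and the median adenylyl cyclase at 2.83, beside 0.616 for the numbered Gpr genes.

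The detected share of members also differed with gene structure. Of 43 members with their longest coding sequence in 1 exon, 16 were detected (37.2%). Of 30 with several coding exons, 19 were (63.3%). The medians were 0.336 and 1.15 CPM per kb. Over all gene rows the detected share was 37.3%, close to that of the members with 1 coding exon. All genes were not split by exon number, and the difference was not tested. The members with several coding exons include the intracellular proteins, which were all detected. For 24 of the 73 annotated members, exons overlapped those of another gene, and for 7 by more than 10% of their length. Among detected members these 7 comprised Gpr137, Gpr25 and Gpr89.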

How the data were processed

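The deposited values are raw read counts per gene symbol, 1 table per library; per the submitters' processing notes the authors used STAR 2.0.0e and HTSeq with mm10. The counting mode, the treatment of strand and the annotation release were not stated. HTSeq's special rows (no feature 12.8 to 16.4%, ambiguous 2.37 to 2.65%, not unique 13.8 to 19.4% of tallied reads) and a row named unknown entered neither library sizes nor tests. Library sizes were scaled by TMM (edgeR 4.0.16, R 4.3.3). All 3 pairs of libraries differed beyond sampling noise (chi-square 12.3 to 28.5 per degree of freedom over 12509 genes). GENCODE M21 (GRCm38, that is mm10) supplied union exon lengths, positions and overlaps, matched by symbol for 72 members and by an older symbol for 1; 1 member had none. Variation between libraries was tested with an intercept-only robust quasi-likelihood fit on genes past filterByExpr (minimum count 10), adjusted over all genes, and the procedure was tested on simulated data. The ratio of each gene's quasi-dispersion to the trend was set against an F distribution. The largest prior degrees of freedom of the robust fit were used for every gene. DESeq2 1.42.0 served as an alternative. Protein identity between related members was planned and was not computed. Named with values are the 20 members highest per kb, members of related pairs with 10 or more reads, and those nearest the detection threshold; others are given by list. A few members count in the totals but are not reported here by name. Members and lists were chosen with earlier results of these data known.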

Additional observations from a re-analysis of the deposited data

How the results depend on the processing

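The number of detected members stayed between 31 (2 CPM in all libraries) and 41 (0.5 CPM), and was 39 with a minimum of 10 counts and 36 with DESeq2's size factors; leaving out 1 replicate gave 36 to 39. No member was called for variation under any of the 7 alternatives run, while the genes called in all went from 4 without replicate 2 to 66 with no filter on low counts. The median level of 0.616 CPM per kb became 1.56 when not divided by length, which changes the unit. Of the 13 pairs, 10 exceeded their spread, 8 by the longest transcript, 9 without length and 9 to 10 leaving out 1 replicate, with Gpr45 to Gpr63 and Gpr107 to Gpr108 lost by the longest transcript. Without length the log2 ratios of Gpr45 to Gpr63 and Gpr107 to Gpr108 reversed to 0.29 and 1.16, as that setting drops the divisor. Among the 20 highest members, 19 were shared with the ranking by longest transcript and 17 with that by CPM. No paired analysis was possible because there is only 1 group. Genes under about 0.2 CPM cannot be told from absent at this depth.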
